A study of Mus musculus with 90 samples.

Results

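The regions described here were the promoter DNase hypersensitive sites (DHSs) of mouse liver that carried neither the glucocorticoid receptor (GR) nor FOXO1. A DHS is a short stretch of chromatin open enough to be cut by DNase I. Members were the DHSs that shared no base with a GR or a FOXO1 peak and overlapped a window of 1000 bp on either side of the transcription start site (TSS) of any gene in the mm9 GENCODE vM1 annotation. The rule took 12527 of 83592 DHSs (15%). The remaining DHSs were 1478 promoter DHSs with a GR or FOXO1 peak (1.77%), 59762 distal DHSs without such a peak, and 9825 distal DHSs with one. No measured change entered the rule.

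The DHSs were called on the pooled reads of 8 DNase-seq libraries, from ZT14-fed and ZT14-unfed livers of C57BL/6N mice (ZT counts the hours from lights on), with 2 replicates per state, each of pooled livers and each digested with 60 U and with 80 U of enzyme. Pooling leaves 1 list for both states, so a gain or loss of accessibility with food was not analysed here. The 10446 GR peaks and 8546 FOXO1 peaks came from ZT14-unfed livers, 2 replicates per factor. RNA came from 54 liver libraries of 5 experiments. In the night-restricted feeding (NRF) experiment, male C57BL/6N mice aged 10 weeks that ate only in the dark were killed at ZT10, at ZT14 with food from lights off (ZT14-fed), or at ZT14 without it (ZT14-unfed), with n = 2 per group. In the injection experiment, NRF mice of the same strain and age given the vehicle PBS were unfed or fed at ZT14, and further fed mice received the synthetic glucocorticoid dexamethasone (dex, 1 mg/kg), the insulin receptor antagonist S961, or both, before the dark phase, with n = 4 per group; the mice given both agents entered the fit but no comparison. L-GRKO mice were Nr3c1 fl/fl animals on a C57BL/6N background that received an adeno-associated virus with Cre under the hepatocyte promoter Tbg, their controls the virus with GFP, all unfed at ZT14, n = 4 each. L-IRSdKO mice carried Irs1 fl/fl, Irs2 fl/fl and Alb-Cre, a hepatocyte Cre, on a C57BL/6J background, and their controls the floxed alleles alone, n = 4 each; all of these mice were fed at ZT14 and had received dex at 1 mg/kg. Obese (DIO) mice were males given a high-fat diet for 10 weeks from 5 weeks of age. Lean mice were given chow for 10 weeks. Both were sampled unfed or fed at ZT14, n = 3 each. Mice of the L-GRKO, L-IRSdKO and obesity experiments were likewise trained to NRF, the L-IRSdKO mice at 10 weeks of age.

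Promoters are the stretches where RNA polymerase II starts transcription. Many lie in CpG islands, which are accessible in most cell types and bound by general factors such as SP, NFY, ETS, NRF1 and YY1, while tissue-specific promoters more often hold a TATA box and are served by distal enhancers. GR, the receptor of corticosterone, and FOXO1, which insulin signalling excludes from the nucleus, raise fasting genes in liver, and much of their binding lies at enhancers away from start sites.

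The 9 sequences below show what such promoters look like, chosen as the member near the most abundant listed gene for a motif, or as the members at the genes with the largest rises and falls after a meal in vehicle-injected mice. Each is the part of the DHS outside exons, from the mm9 genome in the direction of transcription, with positions counted from the TSS. Capitals mark motif matches on either strand, and the letters of each motif are given with its share of DHSs. Only exact letters were searched, so a stretch without capitals, such as that of Igfbp1, can still hold variant forms of a site. The ribosomal protein gene Rps9 and the respiratory chain genes Atp5b and Atp5g3 stand for the abundant housekeeping members.
Rps9, chr7:3655517-3655594, plus strand, bases -78 to -1, capitals CCAAT box and CRE: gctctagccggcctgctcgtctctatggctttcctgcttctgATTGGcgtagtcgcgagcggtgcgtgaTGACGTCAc
Atp5b, chr10:127520111-127520278, plus strand, bases -218 to -51, capitals GC box, CCAAT box, short CRE and heat shock element: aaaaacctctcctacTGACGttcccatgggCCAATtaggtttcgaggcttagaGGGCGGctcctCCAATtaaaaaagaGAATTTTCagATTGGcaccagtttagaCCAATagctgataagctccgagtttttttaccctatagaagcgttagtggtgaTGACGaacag
Atp5g3, chr2:73749477-73749644, minus strand, bases -261 to -94, capitals E-box: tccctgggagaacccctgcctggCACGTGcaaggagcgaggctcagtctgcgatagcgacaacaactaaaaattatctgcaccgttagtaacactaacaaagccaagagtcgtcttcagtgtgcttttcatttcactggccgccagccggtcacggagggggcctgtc
Dbp, chr7:52959554-52959721, plus strand, bases -904 to -737, capitals D-box: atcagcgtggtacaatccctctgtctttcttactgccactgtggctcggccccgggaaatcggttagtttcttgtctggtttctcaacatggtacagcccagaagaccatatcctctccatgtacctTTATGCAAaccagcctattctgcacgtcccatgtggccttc
Creld2, chr15:88649802-88649969, plus strand, bases -274 to -107, capitals GC box, CCAAT box and YY1 site: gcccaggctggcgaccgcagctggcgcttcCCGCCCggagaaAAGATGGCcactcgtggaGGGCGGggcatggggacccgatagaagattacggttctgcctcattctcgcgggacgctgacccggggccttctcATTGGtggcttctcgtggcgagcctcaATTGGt
Sdf2l1, chr16:17132477-17132638, minus strand, bases -162 to -1, capitals CCAAT box: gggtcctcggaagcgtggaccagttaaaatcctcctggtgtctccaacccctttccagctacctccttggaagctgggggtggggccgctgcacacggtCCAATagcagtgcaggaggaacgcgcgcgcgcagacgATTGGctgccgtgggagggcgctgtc
Ces4a, chr8:107655612-107655699, plus strand, bases -88 to -1, capitals RORE: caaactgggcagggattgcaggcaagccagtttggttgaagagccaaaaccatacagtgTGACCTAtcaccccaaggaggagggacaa
Igfbp1, chr11:7097644-7097784, plus strand, bases -141 to -1, no match to the searched motifs: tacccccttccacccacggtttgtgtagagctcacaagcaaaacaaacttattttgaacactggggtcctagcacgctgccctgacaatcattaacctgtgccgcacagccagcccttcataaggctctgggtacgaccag
Arl4d, chr11:101526729-101526854, plus strand, bases -126 to -1, capitals CCAAT box and CRE: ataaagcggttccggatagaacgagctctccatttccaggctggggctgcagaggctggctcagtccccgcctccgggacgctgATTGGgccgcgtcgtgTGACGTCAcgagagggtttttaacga
The stretches of Creld2, Sdf2l1 and Arl4d are dense in CG dinucleotides, and the Ces4a stretch is poor in them, with 1 in its whole DHS against 15 in that of Creld2. The printed stretches of Creld2 and Sdf2l1 end upstream of the start site, so their motifs lie upstream by the choice of stretch. Both genes belong to the secretory stress genes described with the meal.

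Read depth did not enter the tests, since the deposited values are positions and RPKM. The paper's supplement lists read numbers for RNA libraries of the L-GRKO, L-IRSdKO and obesity experiments. Relative depths were also estimated from the steps that 1 read makes in low RPKM values. They were 0.96 to 1.4 within the NRF experiment, 0.68 to 1.15 in the injected mice and 1 to 1.23 for L-IRSdKO. For L-GRKO (0.8 to 1.52) and obesity (0.63 to 1.39) the estimates departed from the listed read numbers in some libraries and are not reliable. The estimates of the NRF and injected mice were not checked in this way. The targeted genes followed their labels in part. Nr3c1, which encodes GR and has a member promoter itself, stood at 12.8, 14.5, 13.2 and 16.2 RPKM in GFP controls and 3.93, 4.23, 4.14 and 5.35 in L-GRKO livers (log2 fold change -1.58, SE 0.12, adjusted p = 7.2e-05). Irs1 fell from 2.21, 4.7, 4.73 and 4.5 RPKM to 0.149, 0.155, 0.321 and 0.17 in L-IRSdKO (log2 fold change -2.66, SE 0.25, adjusted p = 0.00093), but Irs2 was 0.614, 1.63, 5.61 and 0.929 against 0.272, 1, 0.932 and 0.886 RPKM and overlapped (-0.79, SE 0.50, adjusted p = 0.31). Several libraries stood apart. L-IRSdKO replicate 1 lay between the genotypes for several genes named below, though its Irs1 was at 0.149 RPKM, and the replicates numbered 4 of the injected groups deviated from their group means in the same way (r = 0.489 to 0.604 across genes). Summed hepatocyte markers reached 38200 to 83500 RPKM in all groups but those of the L-IRSdKO experiment, where they were 2350 to 3040 RPKM in both genotypes. Summed markers of Kupffer cells, the liver macrophages, were 280 to 351 RPKM in L-IRSdKO against 163 to 299 in floxed livers. Those of endothelial cells were 74.6 to 99.7 against 47.0 to 52.5, and those of lymphocytes 6.47 to 7.77 against 2.83 to 6.56. Cholangiocyte markers were lower in L-IRSdKO, at 7.87 to 13.9 against 19.7 to 46.2. Stellate markers overlapped, at 14.6 to 21.7 against 15.6 to 24.1. In vehicle-injected mice Kupffer markers were 55.4 to 68.6 RPKM unfed and 79.0 to 115 fed, and endothelial markers 28.9 to 33.4 and 37.4 to 44.6. The low hepatocyte sums were common to both genotypes of the L-IRSdKO experiment. The paper prepared its RNA libraries by polydT enrichment or by ribosome depletion, and the part of library preparation in these sums was not tested. For the other differences in marker sums of whole livers, fewer cells of a type and less RNA per cell cannot be told apart. The part of these cells in the results below was not tested.

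Member DHSs crowded around start sites and were mostly those of protein-coding genes. The nearest gene was protein-coding for 10955 of 12527 members (87.5%), a processed transcript for 3.68%, a lincRNA for 3.6%, and a pseudogene for 2.2%. The centre lay a median of 151 bp from the TSS (quartiles 84 and 418 bp), 31.1% lay within 100 bp and 60.5% within 200 bp. Of the members, 52.4% were centred upstream of the start, against 62.8% of promoter DHSs with GR or FOXO1, and 25.1% covered the start base itself, against 27.7%. By annotation, 52.1% overlapped an exon, 15.3% only an intron, and 32.6% no gene. Start sites on both strands stood within reach of 15.2% of members, 9.04% when only protein-coding genes counted, against 10.3% for the bound promoters. Most members served 1 gene, as 10406 (83.1%) had 1 gene start in their window and 2033 had 2.

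**Figure D1:**
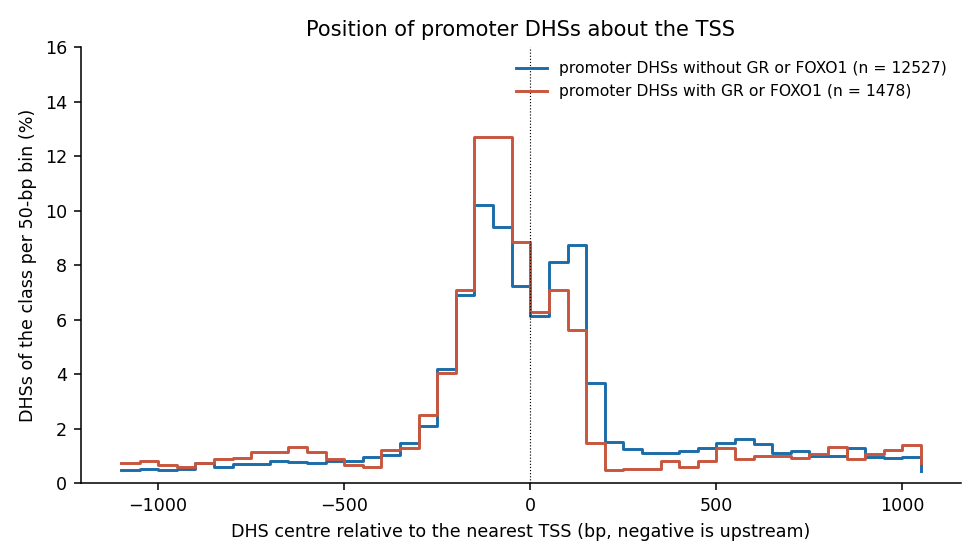
Share of each class (%, y axis) per bin of 50 bp by distance of the DHS centre from the nearest TSS (bp, x axis), for the 12527 members and the 1478 promoter DHSs with GR or FOXO1. Members have a peak on each side of the start, while the bound promoters lean upstream (62.8% against 52.4%).

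The members were rich in CpG dinucleotides. In a window of 200 bp about the centre, their median GC content was 60.5%, against 53.5% in promoter DHSs with GR or FOXO1 and 45.5% in distal DHSs without either. The ratio of observed to expected CpG was 0.712, 0.595 and 0.203 in that order, and the median number of CpGs 12, 8 and 2. Windows with a GC content of at least 50% and a ratio of at least 0.6 are called CpG-rich here. They made up 58.1% of members, 43.2% of bound promoters, and 3.28% of distal DHSs without a peak. Composition followed position. Of the 1667 members centred within 50 bp of the start, 74.4% were CpG-rich, and of the 1001 members from 1084 to 500 bp upstream, 17.5% were, with a median GC content of 49.5%.

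Motifs of general promoter factors were frequent in members and those of GR and FOXO1 rare. The GC box GGGCGG of SP and KLF factors was in 39.7% of members (95% Wilson interval 38.8 to 40.6%), in 25.9% of bound promoters (23.7 to 28.2%), in 4.70% of distal DHSs without a peak, and in 10.1% of all DHSs. The intervals cover counting error only. The ETS site CCGGAAG was in 8.29% of members (7.82 to 8.79%) and 8.12% of bound promoters (6.83 to 9.62%), so this pair of intervals overlapped, against 2.37% of all DHSs. Shares of the NRF1 site GCATGCGC were 2.74% and 2.57%, with 0.738% over all DHSs. The CRE TGACGTCA, bound by CREB and ATF factors, stood at 1.68% and 1.56%, with 0.569% over all. The short form TGACG, which also lies inside the full CRE, stood at 20% and 22.4%, with 10.3% over all. The YY1 site AAGATGGC was in 2.04% of members, 2.10% of bound promoters and 1.15% of all DHSs, and the E-box CACGTG of clock and MYC-related factors in 6.21%, 5.48% and 3.86%. The CCAAT box was in 28.1% of members and 28.6% of all DHSs.

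Motifs of liver and signal-dependent factors showed the reverse order. The FOX core TGTTTAC was in 1.68% of members (1.47 to 1.92%), 6.83% of bound promoters (5.66 to 8.24%), and 5.16% of all DHSs. The longer FOXO form GTAAACAA was in 0.463%, 2.37% and 1.48% of these. The GRE, searched by name, was in 0.152% of members (0.0971 to 0.237%), 1.76% of bound promoters (1.2 to 2.57%) and 0.668% of all DHSs. The lack of a GR or FOXO1 peak is part of the rule, so these motifs describe the same choice from the side of the sequence. The CEBP site TTGCNNAA stood at 6.96% (6.53 to 7.42%), 15.6% (13.8 to 17.5%) and 15.4%, and the core CAAAGTCCA of the hepatocyte receptor HNF4 at 0.495%, 0.88% and 1.25%. The D-box TTATGNAA of DBP and TEF was in 1.56%, 3.52% and 5.17%, the RORE NAGGTCA in 10.4%, 14.1% and 19.7%, the TATA box TATAAA in 4.25%, 5.68% and 9.37%, and the heat shock element GAANNTTC in 4.09%, 5.14% and 5.43%. The core of CTCF, an insulator protein, searched by name, was in 8.30%, 5.21% and 6.26%. Among CpG-rich DHSs alone, members and bound promoters stood at 2.12% and 2.04% for the TATA box and 0.729% and 0.627% for the D-box. HNF4 stood at 0.151% and 0.157% there, and CEBP at 4.01% and 7.68%. Among DHSs that were not CpG-rich, the TATA box stood at 7.22% and 8.45%, the D-box at 2.7% and 5.71%, and CEBP at 11% and 21.5%. The part of base composition in the shares of each class was not tested. A match is only a run of letters, and it does not show that the factor was there. Nor does the lack of an exact match show that a site is absent.

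**Figure D2:**
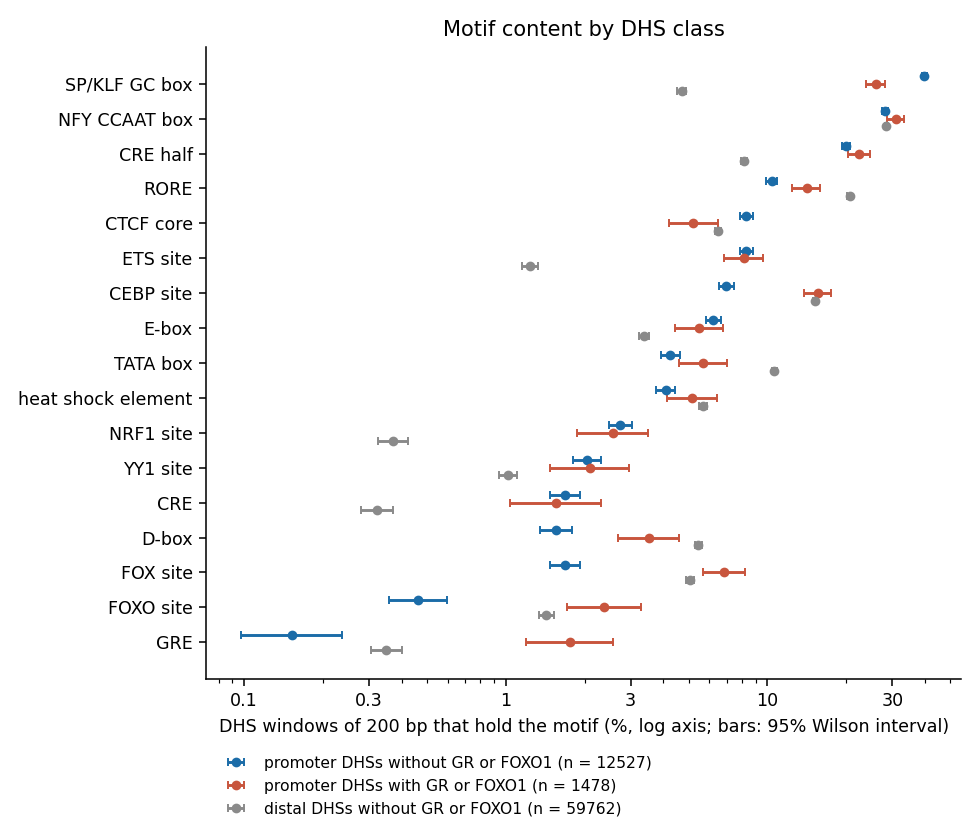
Share of windows of 200 bp that hold each motif (%, log x axis) with 95% Wilson intervals, for members (n = 12527), promoter DHSs with GR or FOXO1 (n = 1478) and distal DHSs without (n = 59762). Points of both promoter classes lie together for ETS, NRF1 and YY1 sites, and apart for the GC box, CEBP, FOX and GRE motifs.

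Motif content differed within the members by CpG class and by position. CpG-rich members held the GC box in 55.8%, the ETS site in 11.8%, NRF1 in 4.26% and the short CRE in 26.5%, and 32.4% covered the start base. Members that were not CpG-rich held the GC box in 17.4% and the ETS site in 3.41%, and 15.1% covered the start. The TATA box was in 7.22% of these against 2.12% of CpG-rich members, RORE in 14.9% against 7.13%, CEBP in 11% against 4.01%, and FOX in 2.86% against 0.825%. Among CpG-rich DHSs alone, FOX was in 6.27% of bound promoters; since members were chosen for lacking a FOXO1 peak, this share is given as a description. By position, the CCAAT box was in 40.2% of the 3330 members centred 200 to 50 bp upstream and in 14.3% of the 2566 centred 50 to 200 bp downstream. The GC box was in 52.9% of the former, and YY1 in 4.48% of the latter. ETS at 14.8%, NRF1 at 5.82% and CRE at 4.08% were most frequent in the bin within 50 bp of the start.

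Most members lay far from the bound sites. The nearest GR or FOXO1 peak was a median of 44846 bp away, against 47920 bp for distal DHSs without a peak. It lay within 200 bp of 2.10% of members, within 1000 bp of 5.74%, within 10 kb of 20.1%, and within 50 kb of 52.8% (51.1% of the distal DHSs). In the order of the deposited DHS list, members made up 29.1% of the first 8360 DHSs and 5.68% of the last 8359, while the share of DHSs with GR or FOXO1 went from 50% to 0.156%. In the last 8359 no promoter DHS carried either factor, so a member late in the list is one for which a peak was rarely seen in any class. The list gives no score, and its order was not explained in the sources used here.

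Genes were then classed by their promoters. A bare promoter is used below for a gene with at least 1 member and no GR or FOXO1 peak in its window. Of the 22380 protein-coding genes, 9993 (44.7%) had a bare promoter, 2.86% had both a member and a peak, 5.33% a peak and no member, and 47.2% neither. Of the 12576 genes with a member, 10523 (83.7%) had 1, 1941 had 2, 109 had 3 and 3 had 4. Of the 22033 genes with RNA values and a position, 10106 were bare, 649 had a member and a peak, 1202 a peak only, and 10076 neither.

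Bare promoters were the most frequent class of genes from 0.05 to 500 RPKM, with the highest share at low to middle levels. The median level over the 6 uninjected NRF libraries was 2.17 RPKM for bare genes, 5.63 for genes with a member and a peak, 4.61 for those with a peak only, and 0.00483 for those with neither. A mean of at least 0.5 RPKM, the limit for testing, was reached by 73.4%, 89.8%, 86.9% and 14.8%. The bare share was 12.8% of genes under 0.05 RPKM, 76.3% between 2 and 5 RPKM, 70.8% between 10 and 20, 60.8% between 50 and 100, 51.4% between 100 and 500, and 35.3% above 500 RPKM. A peak without a member was found at 47.1% of the 68 genes above 500 RPKM. Bare genes with a GR or FOXO1 peak within 50 kb of the start (5023) had a median of 3.15 RPKM and 9 DHSs within that distance, and those without one (5083) had 1.42 RPKM and 5 DHSs. CpG-rich bare promoters had a median of 2.51 RPKM (7059 genes) and the others 1.3 RPKM (3047 genes).

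**Figure D3:**
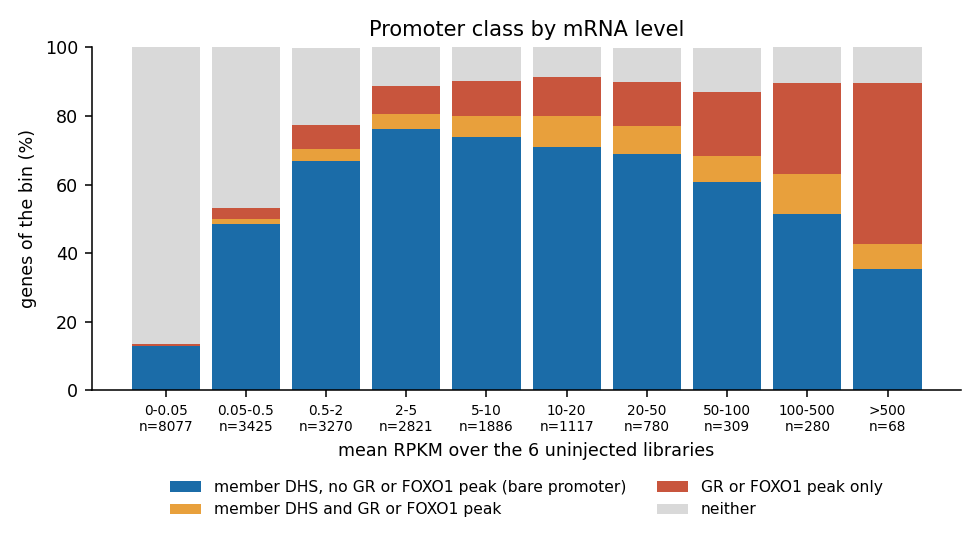
Share of genes (%, y axis) in each promoter class by mean level over the 6 uninjected NRF libraries (RPKM bins, x axis, with the number of genes). The bare class is the widest part of the bars from 0.05 to 500 RPKM, and at the top bin the peak-only class is wider (47.1% against 35.3%).

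Of the genes with RNA values and a position, 10106 of 22033 had a bare promoter, as had 7416 of the 10531 tested in the NRF experiment. Beside these shares, the pathways differed in how many of their genes had a bare promoter. It was 17 of 20 genes for endoplasmic reticulum (ER) chaperones and the unfolded protein response, 21 of 23 for cholesterol synthesis, 33 of 37 for ribosome biogenesis, 64 of 78 for cytosolic ribosomal proteins, 61 of 73 for the respiratory chain, and 33 of 44 for the proteasome. It was 14 of 20 for heat shock, 13 of 19 for fatty acid synthesis, 11 of 14 for immediate-early genes, 8 of 11 for insulin and GR signalling, 11 of 19 for the core clock and 8 of 13 for the ATF4 response. It was 7 of 19 for gluconeogenesis and fasting, 3 of 14 for GR targets, 6 of 16 for liver transcription factors, and 2 of 19 for secreted liver proteins, of which 14 had a peak only. From 0.5 to 50 RPKM, 66.9% to 76.3% of the genes in each level bin were bare. Heat shock (70%), fatty acid synthesis (68.4%), insulin and GR signalling (72.7%) and the proteasome (75%) lay within that range. The markers of other cells gave 3 of 7 for Kupffer, 1 of 6 for endothelial, 4 of 7 for stellate, 2 of 5 for cholangiocyte and 1 of 6 for lymphocyte lists, and neuronal genes gave 2 of 8. Bare genes at the top of their lists were Apoe and Ambp among the secreted proteins, Atp5b at a mean of 491 RPKM in the respiratory chain, and Hnf4a, the central liver receptor, at 117 RPKM.

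RNA changes were tested with limma on log2(RPKM + 0.5) over every gene whose mean reached 0.5 RPKM, so that fold changes understate those of low genes. A gene is called when its Benjamini-Hochberg adjusted p is under 0.01 in the NRF and obesity experiments and under 0.05 in the others. Bare genes, which are most of the genes tested, were called about as often as all genes. Of the 9 comparisons L-GRKO had the widest gap (5.64% against 6.68%). By direction, bare genes differed from genes with a GR or FOXO1 peak in the window. Falls after the meal were 0.243% against 1.23% in uninjected, 0.444% against 1.38% in vehicle-injected, 2.61% against 6.31% in lean and 0.155% against 0.595% in obese mice. Rises were 0.634% against 0.184%, 2.67% against 1.8%, 7.93% against 5.47% and, in the other order, 1.06% against 1.25%. With every library, falls of genes with a peak in the window numbered 20, 23, 106 and 10 in these 4 meals. With libraries left out they numbered 3 to 40, 5 to 30, 50 to 68 and 0 to 14. Genes with a peak in the window also had more RNA, as given above, and the part of level was not tested. Of the 7265 bare genes tested in every comparison, 4913 (67.6%) were called in none, 1714 (23.6%) in 1, and 1 gene in 7. Of 1615 genes with a GR or FOXO1 peak in the window, 61.7% were called in none. The largest rises and falls named below were chosen among called genes whose groups did not overlap, so their non-overlap adds no support. Calls over all genes did not overlap in 110 of 110 cases in the uninjected meal, 332 of 354 in the vehicle meal and 2010 of 2274 in L-IRSdKO.

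**Figure D4:**
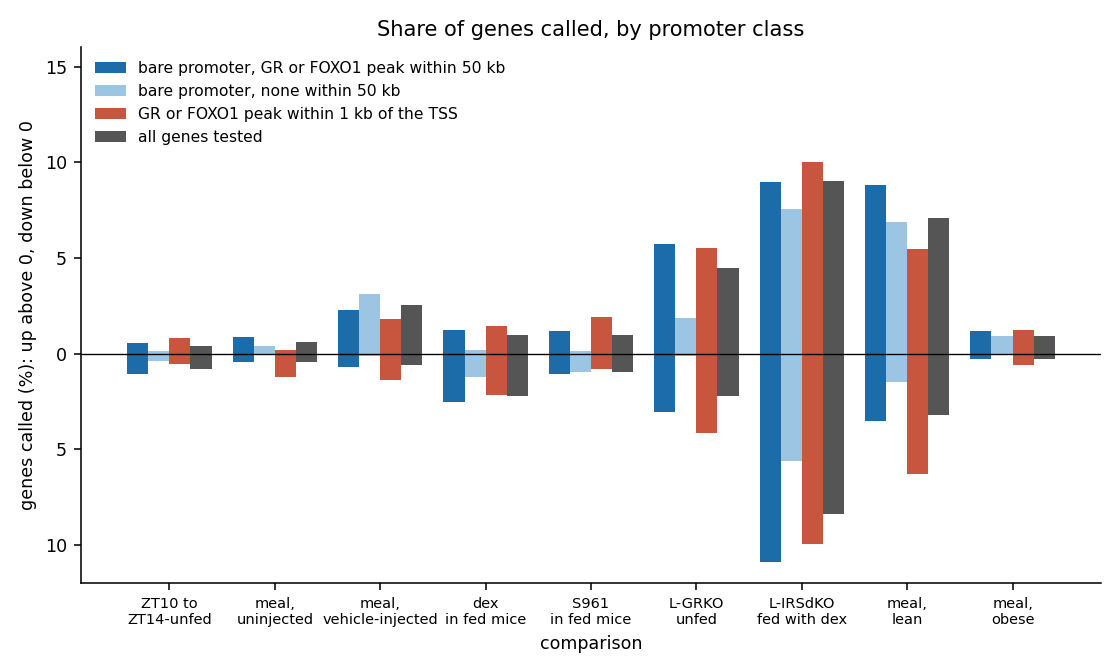
Genes called (% of those tested, up above 0 and down below 0, y axis) in each of the 9 comparisons (x axis) for bare promoters with or without a GR or FOXO1 peak within 50 kb, genes with such a peak within 1 kb of the TSS, and all genes tested. Bars of all classes are tallest for L-IRSdKO and the lean meal, and the downward bars of L-GRKO are 3.03% and 0.138% for bare genes with and without a peak within 50 kb.

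Between ZT10 and ZT14-unfed, when no food was given, clock genes and heat shock genes moved at bare promoters. All genes gave 1.17% called (0.373% up and 0.8% down), and bare genes gave 27 up and 56 down of 7416 (1.12%). Dbp, a clock output factor with 2 member DHSs, went from 35.8 and 34.5 RPKM to 5.7 and 6.74 (log2 fold change -2.41, SE 0.12, adjusted p = 0.00053). Its relative Tef went from 46 and 39.5 to 24.3 and 24.1 RPKM (-0.81, SE 0.10, adjusted p = 0.0084), and Per3 also fell (-1.11, adjusted p = 0.0054). Clock and Nfil3, a repressor of D-box genes, rose by 0.93 (adjusted p = 0.0063) and 1.76 (adjusted p = 0.0035), which made 2 up and 3 down of the 9 bare clock genes. The clock calls were 0 up and 0 down without ZT10 replicate 2, 0 up and 1 down without ZT10 replicate 1 or in the fit of the compared groups alone, 1 up and 1 down without ZT14-unfed replicate 2, and 2 up and 1 down without ZT14-unfed replicate 1 or after median-ratio scaling. Of the 14 bare heat shock genes 5 rose, with a median of 1.02 over the list and -0.10 over all genes. The chaperone Hspa8 went from 56 and 43.2 to 143 and 136 RPKM (1.5, SE 0.14, adjusted p = 0.0041), and Hsp90aa1, Hspa1b, Hspa4l and the co-chaperone Stip1 rose with it. Hspa1b, at 0.823 and 0.623 against 9.45 and 5.12 RPKM, has a near-identical copy and its value is uncertain. No values of the groups overlapped for these genes. The 5 heat shock calls were 0 without ZT10 replicate 1 or replicate 2, 0 in the fit of the compared groups alone, while the median was 1.1 and 0.94 without those libraries.

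Metabolic genes with bare promoters also changed in this interval. Igfbp1, a secreted binder of insulin-like growth factors, went from 15.9 and 18.3 RPKM to 85.7 and 142 (2.66, SE 0.22, adjusted p = 0.0028). The fatty acid elongase Elovl3 went from 11.8 and 15.5 to 46 and 68.7 RPKM (2.01, SE 0.21, adjusted p = 0.0054). Tubb2a, a tubulin, and Slc45a3 followed at 2.31 and 1.5 against 8.94 and 7.02, and 2.95 and 2.41 against 8.94 and 11.9 RPKM. Both groups of 2 were apart for each of these. Aqp8, a water channel, went from 18.9 and 14.7 to 2.98 and 3.01 RPKM (-2.30, SE 0.13, adjusted p = 0.0011), Dclk3 from 3.76 and 2.76 to 0.813 and 0.555, and Clec2h from 14 and 15.8 to 3.69 and 5.4. Mir762 was listed at 0 in both ZT14-unfed libraries and at 0.978 and 1.29 RPKM at ZT10. No cholesterol gene was called by limma although 16 of 21 had an unadjusted p under 0.05 with a negative sign (median -0.57), and Acss2, which makes acetyl-CoA, fell by 1.03 (adjusted p = 0.0093). Without ZT10 replicate 1 only 4 bare genes were called, without replicate 2 it was 1, and without ZT14-unfed replicate 2 it was 24; scaling by median ratios gave 44 calls of which 65.9% were rises, against 32.5%.

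In uninjected mice, 3 of 6 bare fasting genes fell after the meal and 2 of 12 bare genes of fatty acid synthesis, Srebf1 and Fasn, rose. This comparison shares its ZT14-unfed libraries with the one above. All genes gave 1% called (0.582% up and 0.418% down), and bare genes gave 47 up and 18 down of 7416 (0.876%). Igfbp1 went from 85.7 and 142 to 0.812 and 0.907 RPKM (-6.35, SE 0.22, adjusted p = 8.7e-05). Angptl4, an inhibitor of lipoprotein lipase, went from 72.6 and 121 to 14 and 14.1 RPKM (-2.70, SE 0.21, adjusted p = 0.0016), and Irs2, the insulin receptor substrate, fell too (-1.98, adjusted p = 0.0018). No other bare fasting gene was called, and 1 fasting gene was called without ZT14-fed replicate 1 or replicate 2. Further falls were those of Trp53inp1, from 29.3 and 36.5 to 4.92 and 4.56 RPKM, Lpin2, a phosphatidate phosphatase, from 102 and 140 to 18.6 and 18.3, and Cyp4a14, a fatty acid hydroxylase with close paralogs, from 59.4 and 101 to 15.7 and 9.92. Srebf1, the regulator of lipogenic genes, went from 12.7 and 5.77 to 52.1 and 61.5 RPKM (2.65, SE 0.31, adjusted p = 0.0066). Fasn, the fatty acid synthase, went from 14.4 and 8 to 46.8 and 67.5 RPKM (2.33, SE 0.27, adjusted p = 0.0066), and Mid1ip1, which promotes its pathway, from 7.05 and 4.57 to 28.7 and 31.6. Tsc22d1 rose from 6.89 and 7.57 to 30.7 and 28.7 RPKM and Gadd45a, a stress gene, from 0.406 and 0.423 to 2.69 and 3.16. The groups were apart for every gene named here, as for all 110 genes called in this comparison.

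Other lists held few calls in uninjected mice. Ddit3 was the called ATF4 gene (1.51, adjusted p = 0.003), and Zbtb16 the called GR target (-1.20, adjusted p = 0.006). Per2 and Hlf rose and Nfil3 fell among the clock genes, where 0 genes were called without ZT14-fed replicate 1 or replicate 2. None of the 17 ER genes passed limma's threshold, while 14 had an unadjusted p under 0.05 with a positive sign and the list's median was 0.74, against 0.12 over all genes. None of the 14 heat shock genes passed it either, 10 having an unadjusted p under 0.05 and a positive sign. Scaling by median ratios moved the median of all genes from 0.12 to 0.00, and the share of rises among bare calls from 72.3% to 57.6%. Without ZT14-fed replicate 1, replicate 2 or ZT14-unfed replicate 2, the bare calls were 2, 3 and 26, and without ZT14-unfed replicate 1 they were 110.

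In vehicle-injected mice the meal raised ER chaperone genes together. All genes gave 3.12% called (2.54% up and 0.581% down), and bare genes 204 up and 34 down of 7651 (3.11%), so their share was that of the background. Of the 17 bare ER genes, 10 rose and 0 fell, with a median of 0.77 against 0.10 over all genes. Sdf2l1, an ER folding factor whose promoter is printed above, was at 2.54, 3.41, 2.92 and 9.87 RPKM unfed and 12.3, 16.1, 13.4 and 31.9 fed (1.96, SE 0.44, adjusted p = 0.025). Creld2, also induced by ER stress, was at 14.7, 17.8, 13.9 and 26 RPKM unfed and 40.1, 48.4, 50.9 and 119 fed (1.71, SE 0.40, adjusted p = 0.028). Replicate 4 of each group was the highest, and the groups did not overlap. The other risers were Hyou1, Manf, Pdia4, Calr, Dnajb11, Dnajb9, Hsp90b1 and Pdia3. The number of ER calls turned on the libraries and the fit. It was 0 without unfed PBS replicate 2, 1 without unfed PBS replicate 1 or 3 or fed PBS replicate 2, 3, 4 and 6 without fed PBS replicates 4, 3 and 1, 5 after median-ratio scaling, 15 with replicates 1 to 3 alone and 16 with a term for the library series. The last 2 settings were chosen after seeing the data. The list's median stayed between 0.66 and 0.91 when each library was left out.

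Further bare genes changed after this meal. Ces4a, a carboxylesterase, was at 0.332, 0.722, 0.43 and 0.161 RPKM unfed and 3.67, 4.71, 2.97 and 1.93 fed (2.05, SE 0.34, adjusted p = 0.005). Rcan1, an inhibitor of calcineurin, was at 11.5, 13.8, 14.4 and 17.4 against 42.9, 45.8, 43.4 and 36.8 RPKM (1.54, SE 0.22, adjusted p = 0.0029), and the transcript Gm16551 was at 2.02, 2.38, 2.52 and 1.44 against 8.76, 8.49, 9.62 and 5.17. All fed values lay above all unfed ones. Igfbp1 was at 170, 183, 82.2 and 42.8 RPKM unfed and 3.69, 3.28, 6.8 and 11.2 fed (-4.08, SE 0.56, adjusted p = 0.0029). Rgs16, a regulator of G protein signalling, was at 44.2, 42.3, 21.2 and 24.5 against 1.42, 4.72, 9.15 and 1.21 RPKM (-3.15, SE 0.53, adjusted p = 0.0054). Arl4d, a small GTPase, was at 23.2, 24.5, 15.9 and 20.8 against 4.36, 2.33, 4.46 and 10.9 RPKM (-2.01, SE 0.38, adjusted p = 0.009). In these falls too the groups were apart, with fed replicate 4 the highest fed value of Igfbp1 and Arl4d. Angptl4 (-1.52, adjusted p = 0.0081) and Irs2 (-1.41, adjusted p = 0.035) fell as well, and Srebf1 rose from 17.3, 13.8, 15.7 and 18.4 to 34.3, 35.2, 49.6 and 42.1 RPKM (1.27, SE 0.22, adjusted p = 0.0062).

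Other lists held fewer calls. Of the 33 bare ribosome biogenesis genes 6 rose (Ppan, Nop2, Nop58, Nop56, Pwp2 and Mybbp1a, median 0.36), 3 after median-ratio scaling, 2 without fed PBS replicate 3 or unfed PBS replicate 1, 2 or 3, and 3 without fed PBS replicate 1 or unfed PBS replicate 4. Sqle and Mvd were among the cholesterol genes that rose, and Fasn rose and Acss2 fell among those of fatty acids. The cholesterol rises numbered 8 without fed PBS replicate 4 against 3 with every library, and no fatty acid gene fell without unfed PBS replicate 1, 2 or 3 or fed PBS replicate 1 or 2. Of the 2 fatty acid rises, 1 was left without unfed PBS replicate 2 or 3 or fed PBS replicate 1, 2 or 3. Sesn2, Tsc22d3 and Nr1i2 fell, and Klf10 rose. Among the Kupffer cell genes with bare promoters, Adgre1 (0.81, adjusted p = 0.033) and Cd5l (0.74, adjusted p = 0.034) rose, beside the marker sums given above. Ribosomal proteins, respiratory chain, proteasome, clock and heat shock genes had no call by limma, although 2 of 57 ribosomal protein, 5 of 60 respiratory chain, 2 of 33 proteasome, 4 of 9 clock and 5 of 14 heat shock genes had an unadjusted p under 0.05. Over all bare genes the calls were 53 without unfed PBS replicate 2, and 76 to 117 without unfed PBS replicate 1 or 3 or fed PBS replicate 1, 2 or 3. Median-ratio scaling gave 140 with 60.0% rises, against 85.7%.

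Dex in fed mice was followed by more falls than rises of bare genes, an order that turned after median-ratio scaling (54.1% rises) and in the fit of the compared groups alone (51.1% rises), and 2 of the 3 bare genes listed as GR targets rose. The dex, S961 and vehicle-meal comparisons share the fed PBS libraries. All genes gave 3.19% called (0.995% up and 2.19% down), and bare genes 57 up and 148 down of 7651 (2.68%); genes with a GR or FOXO1 peak in the window had 3.61%. Dusp1, a phosphatase of MAP kinases and a known glucocorticoid target, was at 9.17, 15.1, 10.3 and 19 RPKM in fed PBS mice and 40.3, 42.3, 38.9 and 46.5 with dex (1.67, SE 0.24, adjusted p = 0.00079). Gadd45b was at 0.604, 0.386, 1.52 and 1.21 against 7.97, 5.74, 5.72 and 6.85 RPKM (2.37, SE 0.47, adjusted p = 0.0085), and its relative Gadd45g at 16, 33.3, 33.1 and 5.76 against 101, 102, 88.7 and 81.8 (2.33, SE 0.48, adjusted p = 0.011). Dex values lay above every PBS value for these genes. Igfbp1 was at 65.8, 42.9, 32 and 25.6 RPKM with dex (2.70, SE 0.56, adjusted p = 0.01), and Cyp2b10, a drug-metabolizing enzyme with close paralogs, at 8.19, 40.6, 19.8 and 10.1 against 2.44, 1.35, 4.62 and 4.18. Tsc22d3, which encodes GILZ, rose by 0.87 (adjusted p = 0.027). Foxo1, Cry2 and Btg2 also rose among the listed genes.

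The falls with dex included Arrdc3, an arrestin-like adaptor, at 23.5, 19.1, 20.1 and 20.5 RPKM in PBS and 1.6, 1.62, 3.04 and 5.19 with dex (-2.79, SE 0.34, adjusted p = 0.00016). Inhbe, a hepatokine subunit, was at 20.7, 18, 24.8 and 41.8 against 6.01, 5.16, 8.41 and 15.3 RPKM (-1.59, SE 0.30, adjusted p = 0.0063). Neat1, a nuclear long noncoding RNA, was at 26.1, 57.2, 58 and 26.6 against 10.8, 8.94, 18.5 and 10.3 RPKM. No value overlapped between the groups in these. The pheromone protein gene Mup1, one of a family of near-identical copies, was at 35.7, 44.1, 17.1 and 23.5 against 2.69, 0.781, 15.4 and 13.1, and 9030619P08Rik at 9.42, 6.28, 3.83 and 2.16 against 0, 0.361, 1.73 and 1.75 RPKM. Cd5l of the Kupffer list fell (-0.74, adjusted p = 0.03), where summed Kupffer markers were 47.5 to 82.8 RPKM. None of the ER, heat shock or ribosome biogenesis genes was called by limma, with 1 ER, 1 heat shock and 1 ribosome biogenesis gene at an unadjusted p under 0.05. Without fed PBS replicate 2 or dex replicate 1 or 2, bare calls were 109, 97 and 96. Rises were 27.8% of the calls with every library.

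In unfed L-GRKO livers, 2 of the 3 bare genes listed as GR targets fell, as did 1 of 7 bare fasting genes, Igfbp1. All genes gave 6.68% called (4.45% up and 2.23% down), and bare genes 310 up and 133 down of 7855 (5.64%), while genes with a GR or FOXO1 peak in the window had 93 up and 70 down of 1684 (9.68%). Eif4ebp3, a binder of the translation factor eIF4E, was at 123, 99.5, 83.4 and 162 RPKM in controls and 5.6, 5.91, 5.32 and 6.32 in L-GRKO (-4.18, SE 0.17, adjusted p = 6.9e-07). Scara5, a ferritin receptor, was at 13.4, 9.17, 8.56 and 6.08 against 0.361, 0.105, 0.049 and 0.142 RPKM (-3.85, SE 0.22, adjusted p = 1e-05). Zbtb16, a zinc finger factor induced by glucocorticoids, was at 16.3, 8.17, 12.2 and 13.8 against 0.617, 0.573, 0.602 and 0.847 RPKM (-3.46, SE 0.19, adjusted p = 7.1e-06). Every knockout value lay far below the lowest control value for these genes. Gadd45g was at 73.4, 39.7, 26.1 and 36.1 against 1.79, 2.55, 3.71 and 3.58 RPKM (-3.64, SE 0.29, adjusted p = 9.4e-05), and Igfbp1 at 91.1, 106, 43.8 and 77.2 against 8.41, 9.46, 25.6 and 9.51 (-2.62, SE 0.35, adjusted p = 0.002). Tsc22d3 (-1.81, adjusted p = 0.0042), Zfp36, Chac1, Thrsp and Psmd9 fell among the listed genes.

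The 5 bare genes with the largest rises in L-GRKO differed in function. Abcd2, a peroxisomal fatty acid transporter, was at 1.08, 0.615, 1.74 and 0.719 RPKM in controls and 8.03, 7.9, 4.25 and 5.68 in L-GRKO (2.19, SE 0.25, adjusted p = 0.00078). Acot4, a peroxisomal thioesterase, was at 17.2, 8.13, 11.1 and 6.47 against 35.7, 46.5, 49 and 24.4 RPKM (1.85, SE 0.29, adjusted p = 0.0044). Arrdc3 was at 5.59, 5.25, 7.45 and 18.8 against 20.9, 29.7, 44 and 41.4 RPKM (1.95, SE 0.36, adjusted p = 0.01). The genotypes were apart, narrowly for Arrdc3, where control replicate 4 was highest. Hamp2, a hepcidin copy whose reads may be shared, was at 9.38, 10.3, 6.74 and 3.78 against 36, 25.7, 15.5 and 28.5 RPKM, and Serpina7, the thyroxine-binding globulin, at 1.02, 1.71, 2.85 and 1.14 against 12.6, 6.22, 5.65 and 3.71. Of 12 bare genes of fatty acid synthesis, Srebf1, Acaca, Elovl5, Fads1 and Me1 rose and Thrsp fell (median 0.58 against 0.08 over all genes), 2 rising after median-ratio scaling or without control replicate 4, 1 without control replicate 2 or L-GRKO replicate 2, and 3 without control replicate 1 or L-GRKO replicate 1. Of the 21 cholesterol genes 4 rose, Sc5d, Fdft1 and Acat2 among them (median 0.15), 1 after that scaling or without L-GRKO replicate 1, and 2 without L-GRKO replicate 2 or control replicate 1 or 2. Cebpa, Tef and the stellate gene Lrat rose too. No ER, heat shock or ribosome biogenesis gene was called by limma, with 2, 2 and 3 at an unadjusted p under 0.05. Bare calls were 201, 225, 227 and 277 without L-GRKO replicate 2, L-GRKO replicate 1, control replicate 2 and L-GRKO replicate 3, and median-ratio scaling turned the share of rises from 70.0% to 46.8%.

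The bare genes that fell in L-GRKO lay mostly within 50 kb of a GR or FOXO1 peak, and so did those that rose. Of 4223 bare genes with such a peak, 128 fell (3.03%) and 242 rose (5.73%), and of 3632 without, 5 fell (0.138%) and 68 rose (1.87%), where all genes gave 2.23% down and 4.45% up. After median-ratio scaling the falls were 184 and 17, with the replicate number as a block 103 and 12, and with libraries left out 77 to 111 and 3 to 12. Dex gave 51 rises of 4137 (1.23%) with a peak against 6 of 3514 (0.171%) without, where all genes gave 0.995%, and 105 falls (2.54%) against 43 (1.22%), where all genes gave 2.19%. With S961 the rises were 49 (1.18%) against 4 (0.114%) and the falls 43 (1.04%) against 34 (0.968%), where all genes gave 0.96% in each direction. For the vehicle meal all genes gave 0.581% down and 2.54% up. Its falls among bare genes were 30 (0.725%) with a peak and 4 (0.114%) without, whereas its rises were 94 (2.27%) with a peak and 110 (3.13%) without. With libraries left out, these ranged from 36 to 72 against 2 to 12 for the rises with dex, 28 to 61 against 1 to 6 for those with S961, and 11 to 32 against 0 to 5 for the falls of the vehicle meal. The uninjected meal gave 17 falls of 4008 (0.424%) against 1 of 3408 (0.0293%), where all genes gave 0.418%. The lean meal gave 148 of 4178 (3.54%) against 54 of 3569 (1.51%), where all genes gave 3.22%. In L-IRSdKO, 8.95% and 7.53% rose and 10.9% and 5.59% fell, where all genes gave 9.02% up and 8.36% down. Genes near a peak also had more RNA and more DHSs around them, as given above, and the part of level and of DHS number in these shares was not tested. By composition, CpG-rich bare genes were called in 4.51% of 5806 in L-GRKO, 2.18% of 5686 with dex and 0.872% of 5505 from ZT10 to ZT14-unfed, and the other bare genes in 8.83% of 2049, 4.12% of 1965 and 1.83% of 1911. In the lean meal (11% and 9.22%) and the vehicle meal (3.06% and 3.26%) the shares were close.

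S961, which blocks the insulin receptor, lowered cholesterol genes in fed mice. All genes gave 1.92% called (0.96% up and 0.96% down), and bare genes 53 up and 77 down of 7651 (1.7%). Of the 21 bare cholesterol genes 7 fell and 0 rose, with a median of -0.44 against -0.08 over all genes. Sqle, the squalene epoxidase, was at 39.1, 33.7, 35.9 and 17.8 RPKM in PBS and 14.3, 10.5, 11.1 and 10.2 with S961 (-1.37, SE 0.23, adjusted p = 0.0041). Mvd, of the mevalonate pathway, was at 4.59, 5.12, 5.84 and 6.02 against 2, 1.03, 1.27 and 1.96 RPKM (-1.54, SE 0.19, adjusted p = 0.00053). The PBS and S961 values of both genes did not overlap. Insig1 and Lss fell with them. The count was 5 to 9 when libraries were left out, and 1 in the fit of the compared groups alone. Srebf1 fell to 9.57, 11.7, 7.28 and 16.5 RPKM (-1.84, SE 0.22, adjusted p = 0.00053), and S1pr1, a lipid receptor of endothelium, from 24.5, 24.9, 17.9 and 22.8 to 11, 5.87, 9.89 and 7.59.

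With S961, 2 of 7 bare fasting genes rose, Angptl4 and Fgf21, and genes outside that list rose as well. Rgs16 was at 12.8, 32.8, 15.7 and 55.2 RPKM (2.81, SE 0.53, adjusted p = 0.0093) and Angptl4 at 86.7, 118, 68.7 and 135 (1.64, SE 0.28, adjusted p = 0.0055). Fgf21, a fasting hormone, was at 0.539, 0, 0.085 and 0.23 in PBS against 1.41, 2.37, 4.55 and 8.44 RPKM (2.53, SE 0.44, adjusted p = 0.0055). Plin2, a lipid droplet coat protein, was at 79.8, 70.2, 105 and 88.2 against 163, 330, 231 and 287 RPKM (1.52, SE 0.21, adjusted p = 0.0011). G0s2, an inhibitor of lipolysis, was at 51.5, 26.1, 61 and 177 against 206, 298, 206 and 469. The groups were apart in all of these. Igfbp1 was at 7.58, 43.5, 7.37 and 21.3 RPKM with S961 and overlapped the PBS values (1.37, SE 0.56, adjusted p = 0.26). Elovl5 and Klf10 rose and Pik3r1 fell, and the Kupffer genes Adgre1 and Cd5l fell (-0.90, adjusted p = 0.023, and -0.74, adjusted p = 0.041), where summed Kupffer markers were 52.5 to 77.1 RPKM. No ER gene was called by limma, but 15 of 17 had an unadjusted p under 0.05 and a negative sign (median -0.47), as had 3 heat shock genes. Bare calls were 64, 69, 69, 75 and 85 without PBS replicates 2 and 1, S961 replicates 4 and 2, and PBS replicate 3, 12 in the fit of the compared groups alone, and 60.2% of calls were rises after median-ratio scaling against 40.8%.

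In L-IRSdKO livers, cholesterol, ER chaperone and heat shock genes were lower. All genes gave 17.4% called (9.02% up and 8.36% down), and bare genes 693 up and 704 down of 8372 (16.7%). Of the 21 bare cholesterol genes 18 fell (median -0.93 against 0.03 over all genes), of the 17 ER genes 13 fell (median -0.66), and of the 14 heat shock genes 8 fell (median -0.52), and in none of the 3 lists did a gene rise. Sqle was at 41.9, 70.1, 41.7 and 46.7 RPKM in floxed livers and 22.2, 5.35, 8 and 5.6 in L-IRSdKO (-2.44, SE 0.40, adjusted p = 0.0066). Sdf2l1 was at 82.6, 124, 59.9 and 107 against 59.5, 19.7, 21.3 and 9.06 RPKM (-2.01, SE 0.48, adjusted p = 0.023), Creld2 also fell (-1.54, adjusted p = 0.012), and Srebf1 was at 34.7, 42.7, 23.4 and 43.4 against 18.1, 8.59, 6.9 and 7.82 (-1.82, SE 0.30, adjusted p = 0.0068). In each of these, L-IRSdKO replicate 1 was the highest of its group, and the groups were still apart, narrowly so for Sdf2l1. Without that library, 21 cholesterol, 15 ER and 9 heat shock genes fell, and bare calls numbered 921 up and 980 down of 8361 (22.7%, with 23.3% over all genes). The ER falls were 6 without L-IRSdKO replicate 2, 8 without L-IRSdKO replicate 3 or floxed replicate 2 or 4, the heat shock falls 4 or 5 without L-IRSdKO replicate 2, 3 or 4 or floxed replicate 2, and the cholesterol falls 10 or 11 without L-IRSdKO replicate 4 or 3 or floxed replicate 2 or 4.

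The largest single changes in L-IRSdKO were of other kinds. Slc4a9, an anion exchanger, was at 0, 0.085, 0.176 and 0.081 RPKM in floxed and 1.95, 16.6, 14.6 and 20 in L-IRSdKO livers (4.20, SE 0.60, adjusted p = 0.0043). Gpx3, the secreted glutathione peroxidase, was at 5.06, 7.74, 5.54 and 5.73 against 11.7, 195, 225 and 224 RPKM (4.02, SE 0.85, adjusted p = 0.015), and Cdc42ep5 at 2.55, 4.55, 3.78 and 2.89 against 15.8, 69.2, 67 and 71.3 (3.65, SE 0.45, adjusted p = 0.0027). For all 3 genes replicate 1 was far below the other knockouts and above the floxed livers. Cux2, a factor higher in female liver, was at 0.279, 0.106, 1.16 and 1.57 against 13.2, 10.9, 9.79 and 11 RPKM (3.37, SE 0.37, adjusted p = 0.0018), Rgs16 at 43.4, 12.2, 8.37 and 9.59 against 82.4, 206, 263 and 215 (3.56, SE 0.53, adjusted p = 0.0047), and Igfbp1 at 28, 73.7, 55.6 and 47.4 against 351, 532, 559 and 509 (3.30, SE 0.27, adjusted p = 0.00064). C4a, a complement gene with a near-identical copy, was at 57, 64.8, 64.6 and 66.7 against 2.67, 0.444, 3.96 and 1.09 RPKM (-4.89, SE 0.42, adjusted p = 0.00064), and Nat8, of a family of close copies, at 61, 23.9, 27.1 and 37.4 against 0.294, 0.255, 4.03 and 1.2. Elovl3 was at 75.2, 86.2, 119 and 63.1 against 13.7, 2.27, 7.12 and 1.54 RPKM (-4.08, SE 0.55, adjusted p = 0.0039), Serpine2, a protease inhibitor, at 14.7, 18.4, 20.5 and 52.3 against 4.53, 0.578, 1.04 and 0.217, and Cyp4a12a, a male-biased hydroxylase with paralogs, at 97.3, 79.5, 87.1 and 97.7 against 20.8, 3.53, 11.4 and 3.78. Genotypes were apart for each of these genes.

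Among the remaining lists in L-IRSdKO, Elovl5 rose and Srebf1, Thrsp, Acss2, Fasn, Pklr and Mlxipl fell of 12 fatty acid genes (median -0.46). Fbp1, Angptl4, Ulk1 and Igfbp1 rose among the fasting genes. Egr1 rose by 3.02 (adjusted p = 0.00035), with Ier2, Klf6 and Btg2, and Trib3 and Sesn2 rose while Ddit3 fell in the ATF4 list. Psmd9 rose and Pomp, Psmb8, Psmb9, Psmc3, Psmd2 and Psmd5 fell among 33 proteasome genes, where 17.4% of all genes were called. Ndufs1 and Sdhd rose and Ndufv3 fell in the respiratory chain, Rpl22 rose among the ribosomal proteins, and Npm1 rose and Nolc1 fell in ribosome biogenesis. Per2, Pik3r1, Cebpa and Ambp, the precursor of a plasma inhibitor, fell. Clec4f of the Kupffer list (0.46, adjusted p = 0.04) and Tek of the endothelial list (0.66, adjusted p = 0.013) rose, beside the higher marker sums of those cells. The fasting rises were 2 without floxed replicate 1 or 2 or L-IRSdKO replicate 3, and the immediate-early rises 2 without floxed replicate 3 or L-IRSdKO replicate 2. Of the ATF4 genes 1 rose without floxed replicate 1 or L-IRSdKO replicate 2, 3 or 4, and 3 proteasome genes fell without floxed replicate 4 or L-IRSdKO replicate 2 or 3. Respiratory chain genes had 3 rises without L-IRSdKO replicate 1 and 0 without any other library. Bare calls were 650, 711, 681, 922 and 884 without L-IRSdKO replicates 2, 3 and 4 and floxed replicates 2 and 4.

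In lean mice (n = 3 per group), 4 of 7 bare fasting genes fell after the meal and 10 of 17 bare ER genes rose. All genes gave 10.3% called (7.06% up and 3.22% down), and bare genes 614 up and 202 down of 7747 (10.5%). Igfbp1 was at 246, 222 and 259 RPKM unfed and 1.39, 4.3 and 3.26 fed (-6.22, SE 0.42, adjusted p = 6.3e-05), Angptl4 at 116, 114 and 121 against 19.1, 20.7 and 16 (-2.63, SE 0.22, adjusted p = 0.00014), and Trp53inp1 at 31.6, 45.7 and 34.6 against 3.49, 7.51 and 4.51 (-2.78, SE 0.37, adjusted p = 0.00079). Rgs16 was at 146, 40.1 and 58.7 against 6.55, 2.5 and 3.07 RPKM (-4.06, SE 0.65, adjusted p = 0.0019) and Gadd45g at 53.1, 69.6 and 54.4 against 9.8, 8.44 and 8.21. Their groups did not overlap, as for all 1187 genes called in this comparison. Srebf1 was at 14.2, 21.7 and 17.5 against 124, 109 and 94.8 RPKM (2.60, SE 0.27, adjusted p = 0.0003), Mid1ip1 at 8.32, 6.93 and 6.77 against 57, 48.9 and 65.1 (2.87, SE 0.26, adjusted p = 0.00018), Gadd45a at 1.48, 1.46 and 0.774 against 11.4, 7.56 and 7.32, and Nrep at 4.6, 10.5 and 10.2 against 67, 77.1 and 39.4. Of the 17 ER genes 10 rose and Herpud1, of ER-associated degradation, fell from 354, 412 and 365 to 214, 300 and 173 RPKM (-0.75, SE 0.17, adjusted p = 0.0087), with a median of 0.8 against 0.08 over all genes. Sdf2l1 was at 4.87, 4.14 and 4.97 against 21.6, 38.6 and 20.7 RPKM (2.36, SE 0.30, adjusted p = 0.0006). Of 13 heat shock genes 8 rose (median 0.98), 5 after median-ratio scaling, and of 33 ribosome biogenesis genes 10 rose (median 0.55).

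Further lean calls were few per list. Per2, Atf4, Cebpa, Psmg3 and Rpl12 rose. Rora, Chac1, Sesn2, Psmd9, Irs2, Ulk1, Zbtb16, Tsc22d3, Egr1, Btg2, Zfp36, Foxo1, Foxo3 and Nr1i2 fell. No cholesterol or respiratory chain gene was called by limma, with 2 cholesterol and 14 respiratory chain genes at an unadjusted p under 0.05 and a positive sign. When each library was left out, 5 to 7 ER genes, 2 to 5 heat shock genes and 3 to 6 ribosome biogenesis genes rose, all of them below the counts with every library, and lowest without fed replicate 2 (for ER genes also without unfed replicate 1). Bare calls were 489, 299 and 357 without unfed replicates 1, 2 and 3, and 337, 279 and 347 without fed replicates 1, 2 and 3. Median-ratio scaling moved the share of rises among the calls from 75.2% to 55.2%. Summed endothelial markers were 25.8 to 31.1 RPKM unfed and 19.9 to 21.1 fed.

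In obese mice, 12 of 17 bare ER genes rose after the meal. All genes gave 1.2% called (0.944% up and 0.26% down), and bare genes 82 up and 12 down of 7747 (1.21%). None of the ER genes fell, and the list's median was 1.02 against 0.02 over all genes. Creld2 was at 9.03, 9.53 and 16.9 RPKM unfed and 61.5, 113 and 125 fed (3.02, SE 0.35, adjusted p = 0.0023), and Sdf2l1 at 7.14, 6.61 and 4.71 against 22.6, 49.1 and 44.2 (2.50, SE 0.30, adjusted p = 0.0023). Manf, a secreted ER stress protein, was at 16, 9.4 and 19.1 against 54.7, 88.4 and 97.4 RPKM (2.41, SE 0.28, adjusted p = 0.0023), Hyou1, an ER chaperone of the HSP70 family, at 17.8, 12.9 and 21.4 against 68.9, 96.7 and 94.6 (2.30, SE 0.24, adjusted p = 0.0023), and Syvn1, a ubiquitin ligase of the ER, at 15.6, 16.1 and 21 against 60.2, 100 and 104 (2.26, SE 0.28, adjusted p = 0.0028). Fed replicate 1 was the lowest of its group in each of the 5 genes, and the groups were apart. The count of 12 became 0 without unfed DIO replicate 2, fed DIO replicate 2 or fed DIO replicate 3, 9 without unfed DIO replicate 1 or 3, and 0 in the fit of the compared groups alone, whereas the list's median stayed between 0.92 and 1.19.

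Most of the 94 bare calls in obese mice lay outside the ER list. Chac1, which degrades glutathione, was at 2.96, 2.9 and 2.4 RPKM unfed and 0.317, 0.553 and 0.699 fed (-1.68, SE 0.24, adjusted p = 0.0051). Slc8b1, a mitochondrial sodium and calcium exchanger, was at 28.9, 23.2 and 19.9 against 14.6, 9.42 and 7.61 RPKM, Fmo4 at 5.15, 3.42 and 2.92 against 1.58, 1.1 and 1.62, Zbed5 at 2.19, 2.24 and 2.49 against 0.952, 1.21 and 0.58, and Cdkn2c, a cell cycle inhibitor, at 4.04, 4.96 and 3.74 against 2.46, 1.83 and 1.71. The fed values were below all unfed ones in each. Ddit3 rose, as did Fkbp4, Hspa4 and Stip1 among 13 heat shock genes and Nolc1 in ribosome biogenesis. The 3 heat shock calls were 0 without unfed DIO replicate 2 or any 1 fed DIO library. Igfbp1 was at 15.9, 26 and 16.1 against 5.9, 4.38 and 1.48 RPKM, apart but short of the threshold (-2.29, SE 0.42, adjusted p = 0.012). No fasting, fatty acid or cholesterol gene was called by limma, with 3 fasting, 3 fatty acid and 2 cholesterol genes at an unadjusted p under 0.05 and a negative sign. Bare calls were 0 without unfed DIO replicate 2 and without fed DIO replicate 2 or 3, where 1897, 1455 and 1634 genes had an unadjusted p under 0.05, and 41 without unfed DIO replicate 1.

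The difference of the meal response between lean and obese mice was tested directly. It passed an adjusted p of 0.01 for 15 of 11541 genes (0.13%) and for 10 of 7747 bare genes (0.129%). Among these were Mfsd2a, Angptl4, Cutal, Cln8, Gadd45a, Lipg, Rassf6, Sh3bp2 and Tent5c. Angptl4 was at 42.4, 71.2 and 77.8 RPKM in unfed and 69.2, 56.6 and 44 in fed obese mice (-0.15, SE 0.22, adjusted p = 0.72), so the groups overlapped there and not in lean mice. Srebf1 was at 65.4, 54.2 and 34.3 against 53.1, 46.5 and 87.3 RPKM in obese mice (0.27, SE 0.27, adjusted p = 0.58). None of the ER genes was among the 10.

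**Figure D5:**
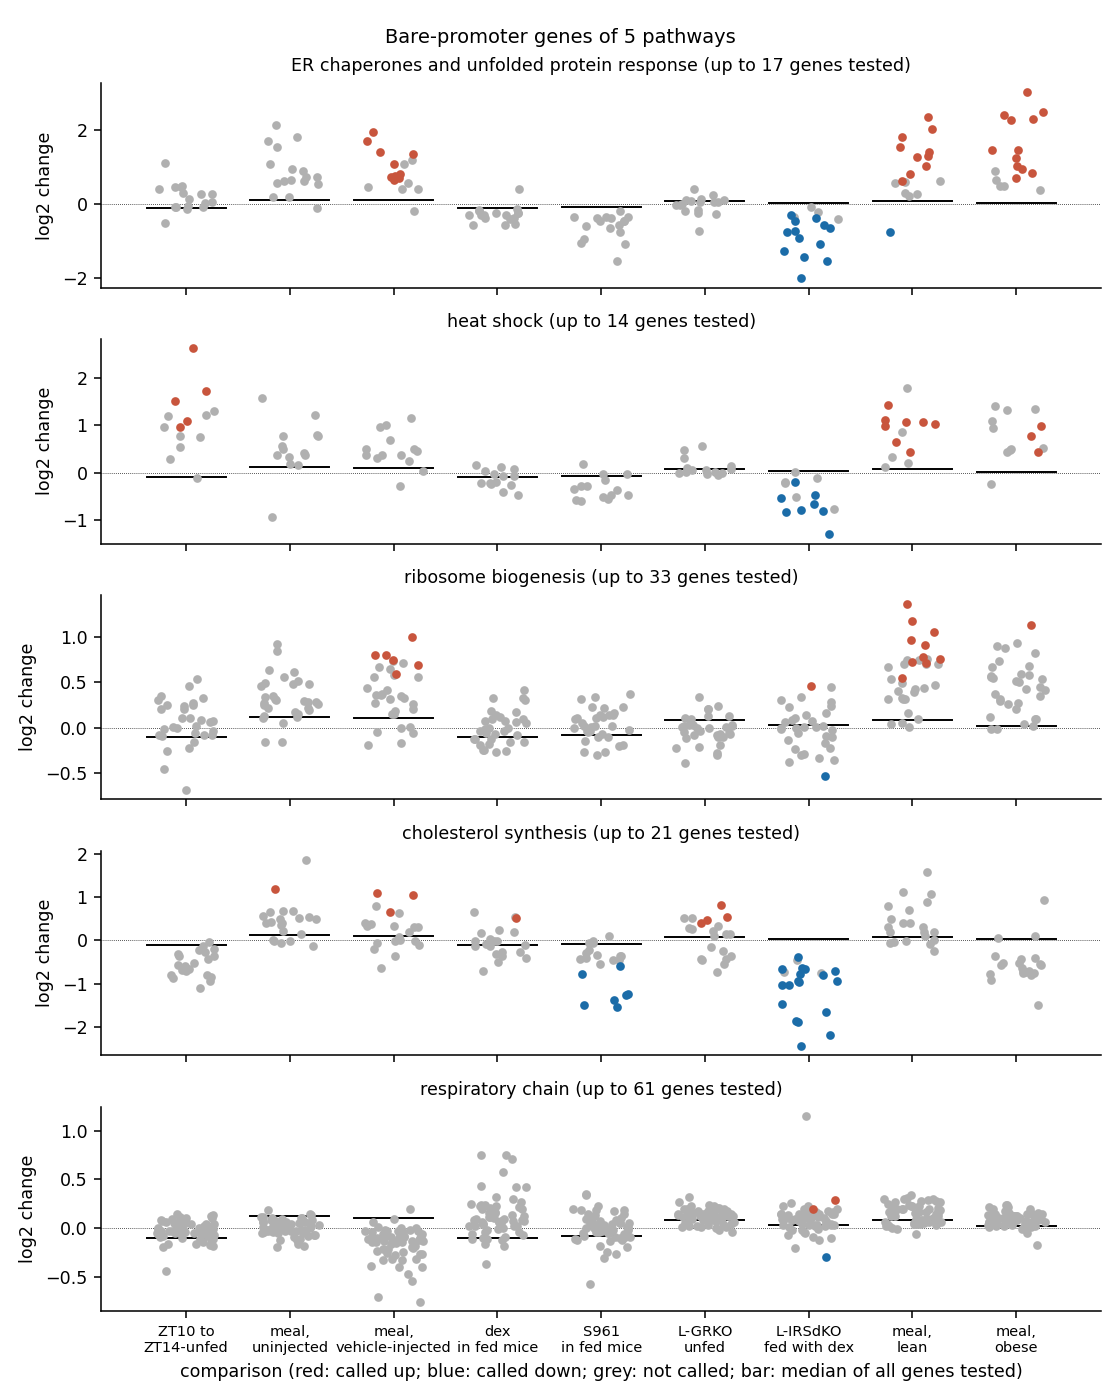
Log2 change (y axis) of every tested bare gene of 5 pathways in the 9 comparisons (x axis), 1 point per gene, red when called up, blue when called down and grey when not called, with a bar at the median of all genes tested. ER genes lie above the bar after the vehicle meal and in both diets and below it in L-IRSdKO, while the respiratory chain stays near the bar with 3 calls in L-IRSdKO.

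Calls among the housekeeping lists differed between comparisons. Of 57 to 64 ribosomal protein genes tested, 1 was called in L-IRSdKO, Rpl22, and 2 in the lean meal, Rpl12 among them, and of 60 to 61 respiratory chain genes, the 3 of L-IRSdKO. Of 33 proteasome genes, 1 fell in L-GRKO (6.68% of all genes called), 1 rose and 6 fell in L-IRSdKO (17.4%), 1 rose and 1 fell in the lean meal (10.3%), and none was called in the other 6 comparisons, with 0 to 5 at an unadjusted limma p under 0.05. Cholangiocyte, lymphocyte and cold-inducible genes with bare promoters gave no call in any of the 9 comparisons, with at most 1 gene tested per list, and no bare neuronal gene reached the limit for testing.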

How the data were processed

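RNA was measured in 54 liver libraries, and accessibility and binding as lists of DHSs, GR peaks and FOXO1 peaks. The authors deposited RNA as RPKM (reads scaled by transcript length and library size) on 35707 RefSeq IDs of mm9, after alignment with STAR, and the peak lists, called with HOMER, as positions without scores. A few abundant genes can shift all other RPKM values of a library. Each of 24312 symbols was represented by the ID with the highest mean, and 22033 were placed on the annotation. The 300 IDs without a symbol stayed in the fit. R 4.3.3 and limma 3.58.1 served to fit log2(RPKM + 0.5) in each of the 5 experiments separately, over genes whose mean reached 0.5 RPKM, with all groups of an experiment in 1 fit and no replicate block. Labels do not pair the replicates. The paper's supplement lists RNA libraries of the L-GRKO, L-IRSdKO and obesity experiments as single mice. Where nothing says that replicates are separate animals, the p-values measure only the spread between samples. Regions were joined in Python 3.11.15 with pandas 2.3.3, scipy 1.17.1 and pysam 0.24.0, and motifs were counted in windows of 200 bp.

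Members and lists were chosen with earlier results of these data known. Genes were named by a rule, namely up to 4 genes per list with a member and the highest NRF level, the 5 largest rises and 5 largest falls per comparison among called bare genes with groups apart, and the genes of the printed sequences, of which those without a printable stretch or motif were left out. Other genes of the lists are named where called. Some genes that the rule would name are not reported here. Simulated data with 200 altered genes were used to test the fit, which recovered 74.5% of them with the NRF groups, 93.5% with those of the injection experiment, 92% with the L-GRKO groups, and 86.5% both with the L-IRSdKO and with the obesity groups. The altered genes had a mean log2 value above 1 and changes of at least 1 in log2, with independent normal noise. With the NRF groups, 59 of the smaller changes (log2 of 1) were recovered against 90 of the larger. Deviations shared by libraries were not simulated, so these shares do not give the power for smaller changes or for low genes. Alternatives were windows, pseudocounts of 0.1 and 1, no filter, median-ratio scaling, a replicate block, the compared groups alone, and each library left out. A term for the library series and replicates 1 to 3 alone were added after seeing the data. H3K27Ac and the DNase-seq signal per state were not analysed here.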

Additional observations from a re-analysis of the deposited data

Results flagged for a closer look

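In groups of 4 libraries, 100 groups of named bare genes were searched for a library far from its own group, and 9 were found, where about 1 in 20 groups is flagged by chance. Among secretory genes, Sdf2l1 was at 9.87 RPKM in unfed PBS replicate 4 against 2.54 to 3.41 in the other 3, and Creld2 at 119 RPKM in fed PBS replicate 4 against 40.1 to 50.9. In the L-GRKO experiment, Arrdc3 was at 18.8 RPKM in control replicate 4 against 5.25 to 7.45, Zbtb16 at 0.847 RPKM in L-GRKO replicate 4 against 0.573 to 0.617, and Igfbp1 at 25.6 RPKM in L-GRKO replicate 3 against 8.41 to 9.51. In L-IRSdKO replicate 1, Gpx3 was at 11.7 RPKM against 195 to 225 and Cdc42ep5 at 15.8 RPKM against 67 to 71.3. In the floxed controls, Rgs16 was at 43.4 RPKM in replicate 1 against 8.37 to 12.2, and Serpine2 at 52.3 RPKM in replicate 4 against 14.7 to 20.5.

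The meal response differed between obese and lean mice for 10 bare genes, by the interaction term of the limma fit. The largest difference was that of Mfsd2a (3.16, SE 0.34, adjusted p = 0.0051). The 2 of these genes that the naming rule also took are given here. For Gadd45a the difference was -2.31 (SE 0.30, adjusted p = 0.0077), with 2.42 in lean and 0.11 in obese mice, n = 3 per group. For Angptl4 it was 2.49 (SE 0.30, adjusted p = 0.0077), with -2.63 in lean and -0.15 in obese mice.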

How the results depend on the processing

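The number of members, 12527, ranged from 10329 with a window of 0.5 kb to 15185 with transcript start sites over the 7 alternatives. Sequence shares moved with the window. From the window of 200 bp to the DHS as called, CpG-rich members went from 58.1% to 56.4%, the GC box from 39.7% to 34.7%, CCAAT from 28.1% to 25.1%, ETS from 8.29% to 6.46%, NRF1 from 2.74% to 2.2%, CRE from 1.68% to 1.3%, YY1 from 2.04% to 1.51%, FOX from 1.68% to 1.39%, CTCF from 8.3% to 6.51% and CEBP from 6.96% to 5.77%. With 300 bp they were 61.8%, 54.2%, 37.2%, 14.3%, 4.22%, 2.71%, 3.62%, 2.46%, 13.6% and 10.5%, and GRE went from 0.152% to 0.279%. With protein-coding genes alone, CpG-rich was 62.2%, the GC box 42.2%, ETS 8.86% and CEBP 6.5%.

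Calls of bare genes moved as follows, and the cause was not tested. Without the filter, in which more genes are tested, ZT10 to ZT14-unfed gave 1 call, the uninjected meal 0 (2285 at an unadjusted limma p under 0.05), the vehicle meal 124, dex 130, L-GRKO 91, L-IRSdKO 627, the lean meal 365 and the obese meal 1. Median-ratio scaling gave 44 for ZT10 to ZT14-unfed and 140 for the vehicle meal. The compared groups alone, with fewer samples, gave 1 for ZT10 to ZT14-unfed, 42 for the uninjected meal, 47 for dex, 12 for S961 and 0 for the obese meal (1597 at an unadjusted limma p under 0.05). With the replicate block it was 5 for ZT10 to ZT14-unfed, 22 for the uninjected meal, 639 for the vehicle meal, 597 for dex, 268 for S961, 849 for L-IRSdKO and 42 for the obese meal, and 16 ER genes rose in the vehicle meal. Same-numbered deviations correlated from -0.201 to 0.604, and in no comparison were all above 0.1. The replicates numbered 4 of the injected groups did share a deviation (0.489 to 0.604), for which the main fit had no term. A term for the library series, added after seeing the data, gave 710, 682 and 296 calls for the vehicle meal, dex and S961, and replicates 1 to 3 alone 460 and 457 for the first pair. Leaving out each library gave 1 to 96 calls for ZT10 to ZT14-unfed, 2 to 110 for the uninjected meal, 53 to 261 for the vehicle meal, 96 to 306 for dex, 64 to 169 for S961, 201 to 407 for L-GRKO, 650 to 1901 for L-IRSdKO, 279 to 489 for the lean meal and 0 to 77 for the obese meal. Of the values of named genes under alternatives, 957 kept direction and side of the threshold, 222 lost the threshold and none changed sign. A stricter peak threshold was not run, as the lists hold no scores. With 2 to 4 libraries per group and read depth left out of the tests, a gene not called is not shown to be unchanged.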
